A study of Danio rerio with 6 samples.

Results

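The small leucine-rich proteoglycans are secreted matrix proteins. Of the 30841 gene symbols in a zebrafish count table, 8 genes of the family are described here: bgna and bgnb (biglycan), dcn (decorin), lum (lumican), fmoda and fmodb (fibromodulin), ogna (osteoglycin) and omd (osteomodulin). Members were found by gene symbol, which matched 7 of the 8. Osteoglycin is listed as ogn and was matched to ogna through its transcript accession in a RefSeq gene table. Where a gene had several transcript rows, the row with the most reads over the 6 libraries stood for it.

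These proteins have a core of leucine-rich repeats that binds collagen fibrils and limits how the fibrils grow and fuse. Biglycan and decorin carry chondroitin or dermatan sulfate chains, lumican, fibromodulin and osteomodulin can carry keratan sulfate, and osteoglycin belongs to a separate branch of the family. In mammals biglycan is a component of bone matrix, decorin and lumican are abundant in fibrous connective tissue, and several members bind ligands of the TGF-beta family.

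RNA was sequenced from cells sorted by fluorescence out of adult caudal fins at 14 days after amputation. There were 2 libraries for each of 3 labelled populations: chondrogenic progenitors of the mesenchyme (CMP, EGFP+/sp7-), their osteogenic counterparts (OMP, EGFP+/sp7+) and osteoblasts (EGFP-/sp7+). All fish carried sox9a:Cre-ERt2, an Ola.Actb reporter with TagBFP between loxP sites ahead of EGFP, Ola.Sp7:mCherry, and cryaa:EGFP, in which a lens crystallin promoter drives EGFP. The strain was an inbred stock of Tubingen origin, and no population without Cre was included. EGFP therefore marks cells by past activity of the inducible sox9a driver, and the study addressed how fin mesenchyme and osteoblasts are related by lineage. Whether the libraries of a group stem from separate fish is not stated. The p-values therefore reflect no more than the spread among these samples, and that spread may be technical.

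The libraries held 3915569 to 5281896 reads with 1 transcript row per gene. Levels of 1 gene across libraries are given as CPM, which are reads scaled for library size and composition by the TMM method. The osteoblast regulator sp7 stood at 1.99 and 2.18 CPM in the CMP libraries, 10.4 and 8.45 in the OMP libraries and 161 and 175 in the osteoblast libraries. The mCherry reporter drew 3 and 47 reads from the CMP libraries, 6 and 62 from the OMP libraries and 2455 and 8136 from the osteoblast libraries. The OMP libraries thus held about as few mCherry reads as CMP, against their sp7+ label. EGFP stood at 796 and 950.01 CPM in the libraries labelled osteoblast EGFP- and at 803 to 1115 CPM in the EGFP+ libraries, so EGFP reads did not follow that label either. Group names below are those of the labels. Cartilage markers summed to 3715 to 4227 CPM for CMP, with 4 or 5 of 10 genes at 0, to 413 to 516 for OMP and to 331 to 365 for osteoblasts. Of the 10 genes 3 could be tested as described below. Hapln1a and sox9a were called lower in OMP and in osteoblasts than in CMP. The type II collagen gene col2a1a had 4 reads in OMP and none in the other groups.

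The makeup of the family differed between osteoblasts and the mesenchymal populations. To set genes beside each other, TPM values were used, which the authors scaled by transcript length. Lumican and decorin together made up 89.8% and 90.3% of the summed TPM of the 8 genes in the CMP libraries and 92.8% and 92.4% in the OMP libraries. In the osteoblast libraries they made up 30.6% and 23.9%. The biglycan pair went the other way, from 0.142% and 0.152% of the sum for CMP to 1.43% and 1.01% for OMP and 67.8% and 74.5% for osteoblasts. Across libraries the 8 genes summed to 9633 and 11310 CPM for CMP, 7750 and 10117 for OMP, with 5493 and 5777 in the osteoblast libraries. In bulk RNA, fewer cells of a type and less RNA per cell cannot be told apart.

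**Figure D1:**
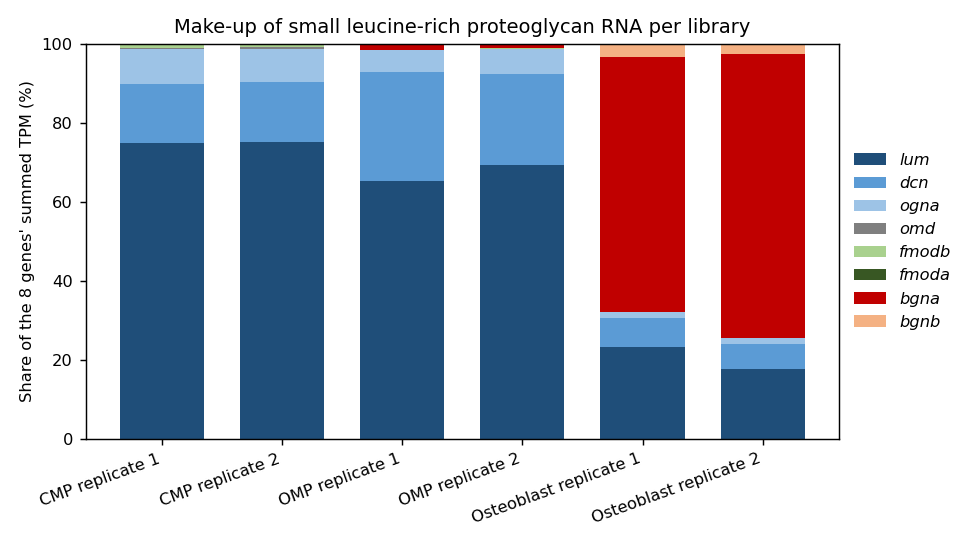
Share of each of the 8 genes in their summed TPM (vertical axis, percent), with 1 stacked bar per library. Lumican fills 65.2% to 75.1% of the CMP and OMP bars, and biglycan a fills 64.5% and 72.1% of the osteoblast bars.

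Differences were tested in edgeR with all 6 libraries in 1 fit, over 13399 genes that passed a filter on low counts, and genes with an adjusted p under 0.05 are named as called. Of the 8 members 7 passed this filter, and fmoda did not. Between OMP and CMP, 2 of these 7 were called, 1 higher (0.791% of all genes tested were called higher) and 1 lower (0.619%), with 1.41% called in all. In osteoblasts against OMP, 6 were called, 2 higher (2.72% of all genes) and 4 lower (4.61%), with 7.34% in all. In osteoblasts against CMP, 7 were called, 2 higher (3.91% of all genes) and 5 lower (5.64%), with 9.55% in all. A gene near 0 in some group passes the filter only through a group in which it is high, so these counts are descriptions and carry no support beyond the single tests. The same shares of all genes and the same limit apply to the gene lists below. The median log2 fold change of the 7 genes was -0.79, -2.39 and -2.64 in the 3 comparisons, beside 0.01, -0.03 and -0.02 over all genes, and is the same with fmodb, at 0 in osteoblasts, set to its bound. The comparisons share libraries and are not independent.

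Separation between libraries was also counted. In OMP against CMP the 2 groups did not overlap for any of the 7 genes, 2 higher and 5 lower, where 36.1% of all genes did not overlap (18.5% higher and 17.6% lower). Such separation takes no account of the size of a difference, and 5 of these 7 genes were not called there. In osteoblasts against OMP 6 genes did not overlap, 2 higher and 4 lower, beside 42.8% of all genes (20.1% and 22.8%). In osteoblasts against CMP 7 genes did not overlap, 2 higher and 5 lower, beside 48% of all genes (22.2% and 25.7%).

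**Figure D2:**
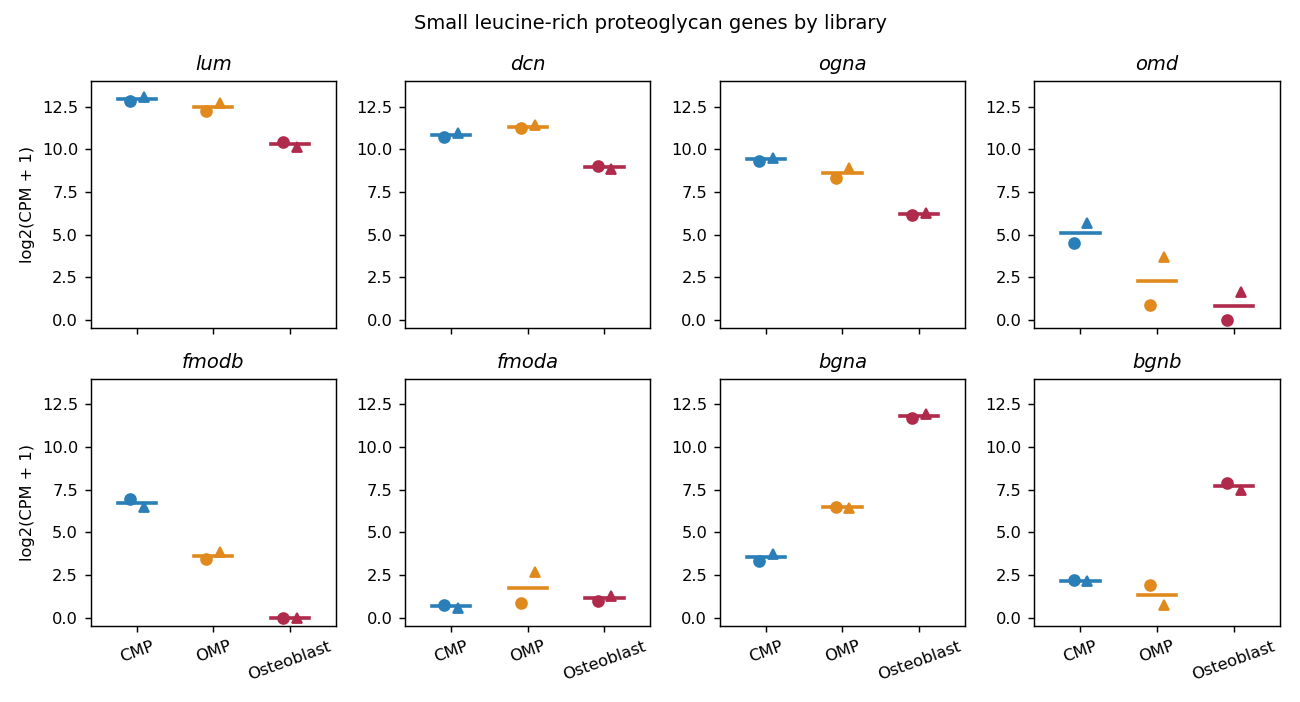
Level of each of the 8 genes in every library as log2(CPM + 1) (vertical axis), by group. Circles are replicate 1, triangles replicate 2 and lines the mean of the 2 libraries; the osteoblast libraries lie below the other 4 for lum, dcn, ogna and fmodb and above them for bgna and bgnb.

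Biglycan a was higher in OMP than in CMP and higher again in osteoblasts. Its level was 9.05 and 12.2 CPM in the CMP libraries (41 and 73 reads), 90.0 and 85.3 in the OMP libraries (329 and 535 reads) and 3290.2 and 3928 in the osteoblast libraries (10056 and 17144 reads). The 3 groups did not overlap. OMP exceeded CMP 8.19-fold (log2 fold change 3.03, SE 0.29, edgeR, Benjamini-Hochberg adjusted p = 0.00469). Osteoblasts exceeded OMP 41.2-fold (5.36, SE 0.31, edgeR, Benjamini-Hochberg adjusted p = 5.18e-05) and CMP 337-fold (8.40, SE 0.36, adjusted p = 8.39e-06). All 3 calls held when any single library was left out, with a largest adjusted p of 0.0483 for OMP against CMP in edgeR.

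Biglycan b, the other copy of the gene in zebrafish, was high in osteoblasts and near the limit of detection elsewhere. It had 16 and 20 reads in the CMP libraries (3.53 and 3.35 CPM), 10 and 4 in the OMP libraries (2.74 and 0.637 CPM) and 716 and 787 in the osteoblast libraries (234 and 180.3 CPM). OMP replicate 2 was the lowest library on the row used. Osteoblasts were higher than OMP (log2 fold change 7.07, SE 0.59, edgeR, Benjamini-Hochberg adjusted p = 2.09e-04) and higher than CMP (5.90, SE 0.54, adjusted p = 2.25e-04). The first value moved to 8.33 without OMP replicate 1 and to 6.23 without OMP replicate 2, and remained called. Between OMP and CMP the difference was -1.16 with a 95% interval of -2.50 to 0.18 and was not called (edgeR adjusted p = 0.651). It was -2.41 without OMP replicate 1 and -0.32 without OMP replicate 2. The difference for biglycan a was 3.03 with an interval of 2.38 to 3.69. The difference between the copies was not tested.

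Per unit of length biglycan a exceeded biglycan b in every library. The ratio of their TPM was 3.50 and 4.99 for CMP, 45.0 and 182.9 for OMP, with 19.2 and 29.8 in the osteoblast libraries. The OMP ratios rest on 10 and 4 reads of biglycan b. The table holds the biglycan b transcript accession on 2 rows of different length. Of these, the row not used had 457 and 551 reads in osteoblasts, 8 and 10 for CMP and 3 and 9 for OMP. The order of the OMP replicates was thus reversed on that row. A further biglycan b row, for a variant transcript, held the same counts and was not used either. How reads were divided between near-identical copies is not stated in the labels, so the level of biglycan b is uncertain.

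Decorin was lowest in osteoblasts. It stood at 1684 and 2012 CPM in the CMP libraries, 2450.1 and 2690.3 in the OMP libraries and 515 and 467 in the osteoblast libraries. The OMP libraries were the highest. Decorin fell 5.23-fold from OMP to osteoblasts (log2 fold change -2.39, SE 0.26, edgeR, Benjamini-Hochberg adjusted p = 6.27e-04) and was 3.76-fold lower in osteoblasts than in CMP (-1.91, SE 0.25, adjusted p = 0.00136). The difference of OMP from CMP was 0.48 with a 95% interval of -0.07 to 1.02 and was not called (edgeR adjusted p = 0.651). Set against decorin by TPM, biglycan a was at 0.00741 and 0.00837 of its level in CMP, 0.0506 and 0.0437 for OMP, and 8.81 and 11.6 times its level in osteoblasts. The order of these class I members was thus the opposite in osteoblasts to that in the mesenchymal libraries.

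Lumican, a collagen-binding member of the keratan sulfate class, was the most abundant of the 8 by TPM in CMP and OMP. It stood at 7149 and 8415 CPM in the CMP libraries, 4877 and 6838 in the OMP libraries and 1382 and 1119.8 in the osteoblast libraries. The osteoblast libraries lay well below the other 4. Lumican was 4.68-fold lower in osteoblasts relative to OMP (log2 fold change -2.23, SE 0.27, edgeR, Benjamini-Hochberg adjusted p = 0.00136) and 6.22-fold lower than in CMP (-2.64, SE 0.28, adjusted p = 4.51e-04). Between OMP and CMP the difference was -0.41 (SE 0.26) and was not called (edgeR adjusted p = 0.811). The ratio of lumican to decorin by TPM was 5.03 and 4.95 for CMP, 2.36 and 3.01 for OMP, with 3.18 and 2.84 in the osteoblast libraries. Of the 3 groups CMP had the highest ratios.

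Fibromodulin b, which binds collagen near the site that lumican uses, fell from CMP to OMP and was not detected in osteoblasts. It had 566 and 538 reads in the CMP libraries (125 and 90.0 CPM), 36 and 82 in the OMP libraries (9.85 and 13.1 CPM) and none in either osteoblast library. OMP was 9.30-fold lower than CMP (log2 fold change -3.22, SE 0.39, edgeR, Benjamini-Hochberg adjusted p = 0.0124). That call was lost without CMP replicate 1 (edgeR adjusted p = 0.0720), CMP replicate 2 (0.0629) or OMP replicate 1 (0.0577). Against a floor of 3 reads over the group, osteoblasts were at least 29.4-fold lower than OMP and at least 259.9-fold lower than CMP. Both differences were called (edgeR, Benjamini-Hochberg adjusted p = 9.72e-04 and 1.15e-04) and held when any library was left out.

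Fibromodulin a, the other zebrafish copy, had 3 reads in each CMP library, 3 and 33 in the OMP libraries and 3 and 6 in the osteoblast libraries. Apart from OMP replicate 2, no library held more than 6 reads. The gene was not tested.

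Osteomodulin, known in mammals as a keratan sulfate proteoglycan of bone and tooth matrix, was scarce and had its lowest group mean in osteoblasts. It had 97 and 298 reads in the CMP libraries (21.4 and 49.9 CPM), 3 and 75 in the OMP libraries (0.821 and 12.0 CPM) and 0 and 9 in the osteoblast libraries (0 and 2.06 CPM). Replicates of a group differed widely, and OMP overlapped with osteoblasts. Osteoblasts were lower than CMP (log2 fold change -4.92, SE 1.22, edgeR, Benjamini-Hochberg adjusted p = 0.0337). That call was lost without CMP replicate 2 (-4.20) and without osteoblast replicate 1 (-4.08). It was also lost with DESeq2 (adjusted p = 0.0906) and with reads summed over transcript rows (edgeR adjusted p = 0.0850). Osteomodulin has 1 transcript row, so summing changed the fit and not its own reads. Without osteoblast replicate 2 the osteoblast library left had no read, so no fold change is given, and the call held (edgeR adjusted p = 0.0273). Neither OMP against CMP (-2.41, SE 0.99, edgeR adjusted p = 0.448) nor osteoblasts against OMP (-2.51, SE 1.22, 0.357) was called, and the second was 0.48 without OMP replicate 2. The first was -1.61 without OMP replicate 1 and -5.39 without OMP replicate 2. Without a filter on low counts it was called (edgeR adjusted p = 6.13e-04). Adjusted p of called members fell steeply in that fit at near-unchanged fold changes. For biglycan a in osteoblasts against CMP it went from 8.39e-06 to 4.07e-89 in edgeR. Calls gained in that fit are therefore not comparable with those of the main fit.

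Osteoglycin, a class III member first purified from bone in mammals, was lowest in both osteoblast libraries. It stood at 639.96 and 726 CPM in the CMP libraries, 318 and 473 in the OMP libraries and 70.3 and 77.2 in the osteoblast libraries. The 3 groups did not overlap. Osteoblasts were lower than OMP (log2 fold change -2.42, SE 0.30, edgeR, Benjamini-Hochberg adjusted p = 0.00155) and lower than CMP (-3.21, SE 0.31, adjusted p = 3.02e-04). OMP differed from CMP by -0.79 with a 95% interval of -1.44 to -0.14, which was not called over all genes (edgeR adjusted p = 0.351). The osteoblast calls of decorin, lumican and osteoglycin all held when any single library was left out.

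**Figure D3:**
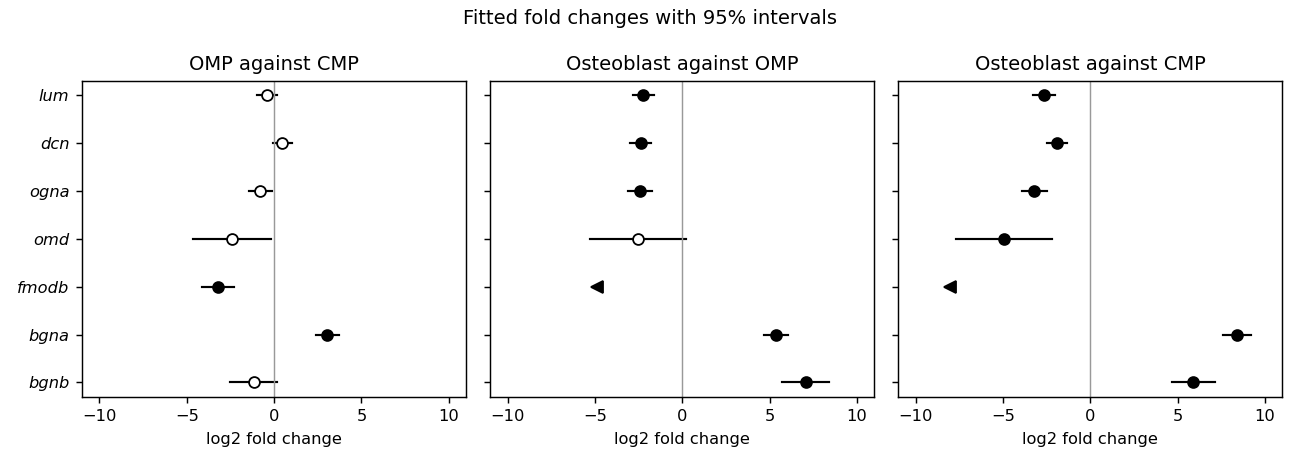
Fitted log2 fold change (horizontal axis) of the 7 tested genes with 95% intervals, by comparison. Filled circles were called, open circles were not, and the left-pointing triangles mark the bound for fmodb, which had no read in osteoblasts; in the 2 osteoblast panels bgna and bgnb lie right of 0 and the other 5 genes left of it.

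By mean TPM (± SD, n = 2), the order in CMP was lum at 5116 ± 863, dcn at 1026 ± 184, ogna at 592 ± 84.7, fmodb at 52.0 ± 9.21, omd at 23.6 ± 14.4, bgna at 8.16 ± 2.14, bgnb at 1.92 ± 0.0303 and fmoda at 0.396 ± 0.0561. Of neighbours in this order only omd and bgna came within their combined SDs. In OMP the order was lum at 3648 ± 1179.5, dcn at 1341 ± 209, ogna at 325 ± 118, bgna at 62.8 ± 3.25, fmodb at 5.30 ± 1.515, omd at 4.14 ± 5.19, fmoda at 2.05 ± 2.196 and bgnb at 0.850 ± 0.699. Among the last 4, each came within the combined SDs of the next in order, whereas fmodb and bgnb lay further apart than that. In osteoblasts the order was bgna at 2016 ± 307, lum at 598 ± 72.5, dcn at 198 ± 8.07, bgnb at 84.3 ± 13.2, ogna at 46.6 ± 4.34, fmoda at 0.591 ± 0.155, omd at 0.502 ± 0.710 and fmodb at 0. There omd came within the combined SDs of fmoda and of fmodb.

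Other genes of the family showed patterns of their own. Of 14 listed, 12 were in the table and 8 were tested. In OMP against CMP none was higher and 3 were lower (1.41% of all genes tested were called). In osteoblasts against OMP 1 was higher and 3 lower (7.34%), and in osteoblasts against CMP 1 was higher and 5 lower (9.55%). Their median log2 fold changes were -1.01, -0.83 and -3.06. With a library left out, 0 to 3 of the 3 OMP calls remained, with 1 left without CMP replicate 1, none without CMP replicate 2 and 1 without OMP replicate 1, and at least 3 of 4 and 4 of 6 of the osteoblast calls remained.

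Asporin (aspn), a collagen-binding member whose protein carries no glycosaminoglycan chain, stood at 3904 and 2968 CPM in the CMP libraries, 726 and 742 in the OMP libraries and 847 and 521 in the osteoblast libraries. OMP and osteoblasts overlapped, and both lay far below CMP. Asporin fell in OMP against CMP (log2 fold change -2.23, SE 0.31, edgeR, Benjamini-Hochberg adjusted p = 0.0151) and in osteoblasts against CMP (-2.33, SE 0.31, adjusted p = 0.00155). The first call was lost without CMP replicate 1 (edgeR adjusted p = 0.0748), CMP replicate 2 (0.0629) or OMP replicate 1 (0.0577). Osteoblasts differed from OMP by -0.10, with a 95% interval of -0.77 to 0.57.

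Prelp, a member that binds heparan sulfate, fell at each step, from 407 and 512 CPM in the CMP libraries to 54.4 and 77.8 in the OMP libraries and 22.2 and 26.1 in the osteoblast libraries. It was lower in OMP than in CMP (log2 fold change -2.79, SE 0.32, edgeR, Benjamini-Hochberg adjusted p = 0.00771), a call lost without CMP replicate 2 (0.0629). It was lower in osteoblasts relative to OMP (-1.45, SE 0.32, edgeR adjusted p = 0.0239), lost without OMP replicate 2 (0.153) or either osteoblast library (0.132 and 0.102) and in a fit of these 2 groups only (0.0576). The fall from CMP to osteoblasts (-4.24, SE 0.35, edgeR adjusted p = 1.33e-04) held whichever library was left out.

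Chondroadherin (chad), known from mammalian cartilage, was lowest in OMP and highest in osteoblasts. It stood at 115 and 99.6 CPM in the CMP libraries, 24.1 and 37.1 in the OMP libraries and 238 and 292 in the osteoblast libraries. It was higher in osteoblasts relative to OMP (log2 fold change 3.11, SE 0.34, edgeR, Benjamini-Hochberg adjusted p = 6.87e-04), which held whichever library was left out. Its fall from CMP to OMP (-1.81, edgeR adjusted p = 0.0337) and its rise from CMP to osteoblasts (1.303, 0.0319) were each lost whichever of the 4 libraries compared was left out, with adjusted p of 0.0683 to 0.191 and 0.0527 to 0.232. Both were also lost with reads summed over transcript rows (edgeR adjusted p = 0.0848 and 0.0591).

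Keratocan (kera), a corneal keratan sulfate member, had 33 and 16 reads in the CMP libraries, 62 and 92 in the OMP libraries and 0 and 1 in the osteoblast libraries. It was called lower in osteoblasts relative to OMP (edgeR, Benjamini-Hochberg adjusted p = 0.00358), where the ratio of depth-scaled reads was 115 with a 95% counting interval of 20.3 to 4574. It was called lower than in CMP too (ratio 34.6, interval 5.93 to 1395, edgeR adjusted p = 0.0161), a call lost when CMP replicate 1 (0.0692) or osteoblast replicate 1 (0.0572) was omitted. Without osteoblast replicate 2, in which the single read lies, both calls held at adjusted p of 0.0130 and 0.0456.

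Podocan (podn) had 44 and 84 reads in the CMP libraries, 57 and 178 in the OMP libraries and 2 and 3 in the osteoblast libraries. It was lower in osteoblasts relative to OMP (log2 fold change -4.98, SE 0.64, edgeR, Benjamini-Hochberg adjusted p = 0.00165) and lower than in CMP (-4.09, SE 0.64, adjusted p = 0.00339). Ecm2 was lower in osteoblasts than in CMP (-3.79, SE 0.62, edgeR adjusted p = 0.00456), or -4.61 and -3.19 without osteoblast replicates 1 and 2. Tsukushi (tsku), a secreted modulator of BMP and Wnt signalling, lay between 92.7 and 181 CPM in the 6 libraries and was not called. Nyctalopin (nyx), known from the retina, had 3 to 17 reads a library and was not called. Epyc, optc, chadla and chadlb had at most 22 reads in a library and were not tested.

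Several of these genes are neighbours in the RefSeq gene table of assembly GRCz12tu. Epyc, kera, lum and dcn follow each other as protein-coding genes, as do ogna, omd, aspn and ecm2. In the first run, kera and dcn were higher and lum lower in the OMP libraries than in the CMP libraries, without overlap and without a call. Kera, lum and dcn were all called lower in osteoblasts than in OMP and than in CMP, as given above. In the second run the group means of CPM went from 683 to 396 to 73.8 for ogna, from 35.6 to 6.39 to 1.03 for omd, from 3436 to 734 to 684 for aspn and from 51.4 to 17.4 to 3.81 for ecm2. The OMP and osteoblast libraries overlapped for aspn and omd. Without osteoblast replicate 2 the step of aspn from OMP to osteoblasts was 0.23, and without OMP replicate 2 that of omd was 0.48. Among these 4 genes, aspn was called between OMP and CMP and ogna between osteoblasts and OMP, and the other single steps were not called in this fit. The step of ecm2 from OMP to osteoblasts was -2.21 (edgeR adjusted p = 0.0665). It was -1.38 and -2.75 without OMP replicates 1 and 2, and -3.02 and -1.61 without osteoblast replicates 1 and 2. It was not called with reads summed over transcript rows (edgeR adjusted p = 0.118) or in a fit of these 2 groups only (0.121). The ecm2 step was called with DESeq2 (adjusted p = 0.00974) and without a filter (edgeR adjusted p = 6.68e-04). Without a filter its step from CMP to OMP (-1.58) was called as well (edgeR adjusted p = 0.0319). As given for osteomodulin, calls gained without a filter are not comparable with those of the main fit.

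**Figure D4:**
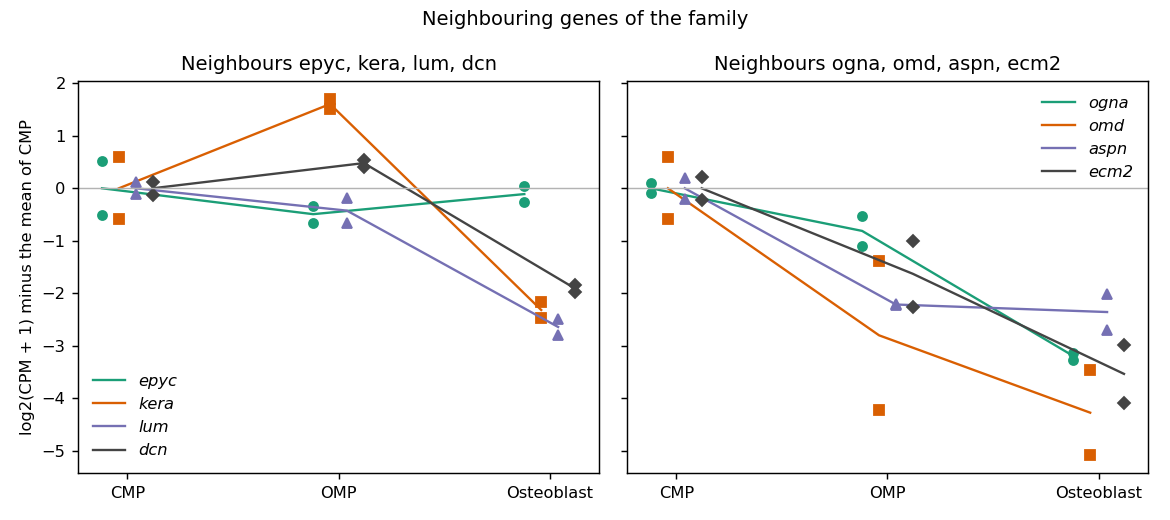
Difference of each library's log2(CPM + 1) from the CMP mean of that gene (vertical axis) for 2 runs of neighbouring family genes, by group. Points are libraries and lines join group means. The means of ogna, omd and ecm2 go down at both steps and that of aspn mainly from CMP to OMP. The OMP and osteoblast libraries overlap for omd and aspn. Kera and dcn lie above 0 in OMP, and kera, lum and dcn lie below 0 in osteoblasts.

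The enzymes that build chondroitin and dermatan sulfate chains were called in both directions. Of 34 listed genes for the linker, the chain and its sulfation, 28 were tested. OMP against CMP gave none higher and 1 lower (1.41% of all genes tested were called). In osteoblasts against OMP 5 were higher and 2 lower (7.34%), and in osteoblasts against CMP 4 were higher and 4 lower (9.55%). The medians were 0.13, 0.08 and 0.44. Of the 4 lower calls against CMP, 2 were left without CMP replicate 1, CMP replicate 2 or osteoblast replicate 2, and of the 2 against OMP, 1 was left without OMP replicate 1 or osteoblast replicate 2. Chst3b, which adds 6-O-sulfate to chondroitin, stood at 82.6 ± 26.1 CPM for osteoblasts (SD, n = 2), 1.26 ± 0.240 for OMP and 0.582 ± 0.114 for CMP. It rose in osteoblasts against OMP (log2 fold change 5.97, SE 0.49, edgeR, Benjamini-Hochberg adjusted p = 1.98e-04) and against CMP (7.11, SE 0.53, adjusted p = 1.07e-04). The uronyl sulfotransferase gene ust rose in osteoblasts against OMP (2.50) and CMP (2.66). The chain-polymerizing factor gene chpfb rose against OMP (4.78, or 4.47 to 5.44 with a library left out) and was also called higher against CMP. Chst12b was called higher in osteoblasts against each, with 148 reads beside 2 in OMP and 1 in CMP. Its depth-scaled ratios were 99.0 (95% counting interval 26.9 to 825) against OMP and 209.5 (37.0 to 8331) against CMP. Chsy1, also called higher against OMP, lost that call without OMP replicate 2 (1.98) or osteoblast replicate 1 (2.29).

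Csgalnact1a, which starts chondroitin chains, went the other way. It stood at 38.7 ± 8.75 CPM for CMP (SD, n = 2), 6.01 ± 0.393 for OMP and 0.507 ± 0.255 for osteoblasts. It was lower in OMP than in CMP (log2 fold change -2.68, edgeR, Benjamini-Hochberg adjusted p = 0.0221), a call lost whichever of those 4 libraries was left out (adjusted p of 0.0866 to 0.188). It was lower in osteoblasts relative to OMP (-3.43, edgeR adjusted p = 0.00838) and than in CMP (-6.11, 2.64e-04). With a library left out the first ran from -4.07 to -3.05 and the second from -6.76 to -5.75. Dse was also called lower in osteoblasts against OMP and CMP, and xylt1 and ugdh against CMP. Each of these calls was lost with some single library left out. Among 10 listed keratan sulfate genes 5 were tested. None of those 5 was called by edgeR in any comparison. Some listed genes had few reads. Chst1 had 21 in osteoblasts, 0 in OMP and 2 in CMP. B3gnt7 had 25 in OMP, 1 in CMP and 3 in osteoblasts. At such counts the lack of a call does not show equal levels.

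Collagens and other matrix partners were called in both directions as well. The list of 23 genes held collagens, the tenascin gene tnxba and the fibronectin genes fn1a and fn1b, and 21 were tested. OMP against CMP gave 3 higher and none lower (1.41% of all genes tested were called). In osteoblasts against OMP 4 were higher and 9 lower (7.34%), and in osteoblasts against CMP 7 were higher and 8 lower (9.55%). The medians of the list were 0.83, -1.20 and -0.87. The type I collagen gene col1a2 stood at 15595 ± 352 CPM for CMP (SD, n = 2), 46724 ± 5749 for OMP and 79039 ± 5106 for osteoblasts. Between OMP and CMP, col1a2 (1.58), col1a1b (1.86) and col14a1a (2.52) rose, and all 3 calls were lost without CMP replicate 1 (edgeR adjusted p of 0.0718, 0.0506 and 0.0723) or CMP replicate 2 (0.0934, 0.0786 and 0.204). Col14a1a also lost its call without OMP replicate 1 (1.93, edgeR adjusted p = 0.0966). In osteoblasts against CMP, col1a1a (2.64), col1a2 (2.34) and the type V collagen gene col5a2b (10.54, or 10.02 to 11.28 with a library left out) rose. Against OMP, col5a2b rose (8.01, or 7.45 to 8.90 with a library left out), while col5a3b (-6.45) and col6a1 (-2.65) fell. Without osteoblast replicates 1 and 2 the value of col5a3b was -7.72 and -5.65. Some osteoblast calls were lost with a library left out. Against CMP these were col5a1 and col5a2a without CMP replicate 1 (-1.42 and -1.19) or osteoblast replicate 2 (-1.49 and -1.19). Others were col14a1a without CMP replicate 2 (1.48) or osteoblast replicate 1 (1.75) and col11a1b without CMP replicate 1 (1.67). Against OMP they were col2a1b and col11a1a without osteoblast replicate 2 (-1.60 and -1.83).

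Of 32 listed growth factor ligands and receptors that family members are known to bind or modulate, 23 were tested. In OMP against CMP 2 were called higher and 1 lower (1.41% of all genes tested were called). In osteoblasts against OMP 3 were higher and none lower (7.34%), and in osteoblasts against CMP 3 were higher and 1 lower (9.55%). The medians were -0.04 for OMP against CMP, 0.12 for osteoblasts against OMP and 0.35 for osteoblasts against CMP. Bmp2b stood at 0.887 ± 0.308 CPM for CMP (SD, n = 2), 5.99 ± 0.812 for OMP and 36.7 ± 4.57 for osteoblasts and was called higher at both steps. Bmp6 had no read in CMP, 25 in OMP and 129 in osteoblasts, at least 8.82-fold and 60.9-fold higher against a floor of 3 reads over the CMP group, and was called in all 3 comparisons. Tgfb3 stood at 211 ± 32.7 CPM for CMP, 56.3 ± 3.92 for OMP and 45.2 ± 9.32 for osteoblasts and was called lower in both populations than in CMP. The receptor gene tgfbr2b stood at 281 ± 40.9 CPM for osteoblasts, 46.0 ± 5.77 for OMP and 93.1 ± 36.7 for CMP and was called higher in osteoblasts against each.

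Several of these calls depended on single libraries. In OMP against CMP none of the 3 (bmp2b, bmp6 and tgfb3) was still called once any single CMP or OMP library was left out, with edgeR adjusted p of 0.0796 to 0.324, and tgfb3 alone was still called without osteoblast replicate 1. The bmp6 call in osteoblasts against OMP was lost whichever of those 4 libraries was left out (edgeR adjusted p of 0.0505 to 0.140). Tgfbr2b against CMP lost its call when CMP replicate 2 (edgeR adjusted p = 0.170) or osteoblast replicate 1 (0.0741) was omitted.

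Of 16 listed genes that process or cleave matrix proteins, 13 were tested, with medians of -0.73, 0.49 and 0.09 for OMP against CMP, osteoblasts against OMP and osteoblasts against CMP. The procollagen C-proteinase enhancer gene pcolceb stood at 849.5 ± 41.0 CPM for osteoblasts (SD, n = 2), 48.0 ± 17.6 for OMP and 107 ± 52.8 for CMP. It rose in osteoblasts against OMP (log2 fold change 4.14, edgeR, Benjamini-Hochberg adjusted p = 6.30e-04) and CMP (2.99, adjusted p = 0.00189). With a library left out the value against CMP ran from 2.56 to 3.61. The gelatinase gene mmp9 was higher in OMP than in CMP (2.10), a call lost without CMP replicate 1 (edgeR adjusted p = 0.118), CMP replicate 2 (0.258) or OMP replicate 1 (0.116), and higher in osteoblasts than in CMP (2.59). The collagenase gene mmp13a was called lower in osteoblasts than in CMP, with 1 read against 259, a depth-scaled ratio of 182.95 (95% counting interval 32.5 to 7254).

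In the same list, adamts1 and adamts15a, genes of a family of proteoglycan-cleaving proteases, were lower in osteoblasts than in CMP (-2.55 and -2.23). With a library left out the value of adamts1 ran from -3.18 to -2.09. Adamts15a lost its call without CMP replicate 2 (-2.00). Against OMP, pcolcea was higher (1.83) and adamts1 (-1.82) and mmp14b (-1.35) lower in osteoblasts. Of these 4 calls against OMP, pcolceb included, 1 was left without osteoblast replicate 2 and 2 without OMP replicate 1. Pcolcea was lost without either of these (1.63 and 1.69), and so was adamts1 (-1.35 and -1.40). Adamts1 moved to -2.44 without osteoblast replicate 1. Mmp14b was lost without CMP replicate 2 (edgeR adjusted p = 0.0527), OMP replicate 2 (0.152) or osteoblast replicate 1 (0.184) or 2 (0.0567).

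Summed levels of marker genes also differed between groups. Osteoblast markers, 11 genes with none at 0, summed to 945 to 1017 CPM for CMP, 4349 to 5637 for OMP and 200406 to 257051 for osteoblasts, in the order of biglycan a. Among these markers alpl went against the sum and was called lower in osteoblasts than in OMP. Whether osteoblasts among the cells sorted as OMP contributed to the level of biglycan a there was not tested. Epidermal markers, 10 genes with none at 0, summed to 11066 to 11952 CPM for CMP, 6936 to 7444 for OMP and 3433 to 3868 for osteoblasts. The sum is not that of a typical epidermal gene: the median log2 fold changes of the 10 were -0.18, 0.09 and -0.19, none was called in OMP against CMP by edgeR, and 3 were called lower in osteoblasts against OMP (krt4, ppl and krt91) and 3 against CMP (krt4, krt91 and krt15). Fin mesenchyme markers, 12 genes, summed to 3475 to 4720.1 CPM for CMP, 1219 to 1571 for OMP and 969 to 1134 for osteoblasts, with 1 to 3 of them at 0 in a library. Against the direction of that sum, dpt was called higher in osteoblasts than in OMP, while 4 were called lower. Mural cell markers, 9 genes, summed to 447 to 614 CPM for CMP, 235 to 332 for OMP and 129 to 197 for osteoblasts, where 2 or 3 were at 0. In osteoblasts against OMP 1 of them, myl9a, was called higher and 3 were called lower. The last 3 sums went down in the order in which lumican, osteoglycin and fibromodulin b did, and their part in those results was not tested. Tendon markers, 8 genes with none at 0, summed to 1414 to 2019.9 CPM for CMP, 999 to 1359 for OMP and 2824 to 4088 for osteoblasts, where thbs4a and thbs4b were called lower than in CMP against the direction of the sum. Leukocyte, endothelial, pigment and nerve markers each summed to at most 40.2 CPM in a library, and osteoclast markers to 186 to 394 CPM, with 1 or 2 of 5 genes at 0.

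The genes most alike to each member were taken by Pearson correlation of log2 CPM over the 6 libraries, among 5055 genes. These values are descriptions, since the 6 points fall into 3 groups and share library scaling. For biglycan a they were the osteocalcin gene bglap (r = 0.9995), sp7 (0.9986) and the lysyl oxidase family gene loxl4 (0.998). Bglap spanned 8.65 log2 units between its lowest and highest library, against 8.69 for biglycan a. For biglycan b they were furinb (0.997), fgfr3 (0.996) and sorbs2a (0.995), which spanned 2.94 to 4.199 units against 7.78. For decorin they were cd82a, cpxm2 and nbl1, and for lumican gyg1a, nkd2b and crabp2a. For fibromodulin b they were axl, krt92 and fam110b, and for osteoglycin fhl1a, crabp2a and fxyd6l. Some spans were close, as for cd82a (2.29 units against 2.52) and fxyd6l (2.94 against 3.36). Others were not, as for nbl1 (8.15 against 2.52), gyg1a (0.96 against 2.91), fam110b (2.07 against 8.19) and fhl1a (7.20 against 3.36). For osteomodulin they were the ribosomal protein gene rpl8 (0.998), stxbp6 and wfdc1, of which rpl8 spanned 0.50 units against 6.87.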

How the data were processed

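The authors deposited raw counts per RefSeq transcript and TPM values beside them. Per the submitters' processing notes, the tools were HISAT2 2.2.1 and featureCounts 2.0.3 and the build was GRCz11. The strand setting and the handling of shared reads are not stated there, and reads of a gene and of one that overlaps it were not separated here. The deposited TPM values, which the authors scaled by length, served only to compare genes with each other. Of 75811 rows, 2 with empty cells were left out. Tests ran in R 4.3.3 with edgeR 4.0.16 on the counts of 1 row per gene: TMM factors, filterByExpr by group, the default quasi-likelihood test, two-sided, group as the only term, 3 residual degrees of freedom, and Benjamini-Hochberg adjustment over 13399 genes. SE is the log2 fold change over the square root of F. DESeq2 1.42.0 was an alternative. The code was tested on simulated counts. Counting intervals (exact, 95%) and the floor of 3 reads cover counting error only, since reads carry no molecular identifiers. With 1 row per gene a library held 3915569 to 5281896 reads, and counts over all transcript rows summed to 6398411 to 9520310. Both rows of fibromodulin b hold the same counts, so summed rows may count a read more than once. Named genes are all members, the other family genes, sp7 and the reporters, the 3 called genes of smallest p in each pathway list and comparison (every called gene where 5 or fewer were called), and the 3 genes most alike to each tested member, sought where the mean log2 CPM reached 4. Further listed and marker genes are named where they bear on a marker sum, lost a call or held few reads in a group. Members, lists and tests were chosen with earlier results of these data known.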

Additional observations from a re-analysis of the deposited data

How the results depend on the processing

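Under 13 alternatives (12 planned, and a newer quasi-likelihood method of edgeR chosen after seeing the data), 260 of 272 values of a member's fold change kept direction and side of the threshold, 7 lost a call, 4 gained one and 1 changed sign (osteomodulin, osteoblasts against OMP, 0.48 without OMP replicate 2, with -7.97 to 0.48 over left-out libraries, the lowest fitted against a library with no read). In OMP against CMP 2 members were called, and 1 to 2 with a library left out. The labels do not say that replicate numbers pair samples. Deviations of same-numbered libraries correlated at 0.34, 0.38 and 0.30 in OMP against CMP, osteoblasts against OMP and osteoblasts against CMP. With the replicate block 4 members were called in OMP against CMP, osteoglycin (edgeR adjusted p = 0.0308) and osteomodulin (0.0207) among them, and 6 and 7 in the other comparisons. Among neighbouring family genes the block also called ecm2 in OMP against CMP (edgeR adjusted p = 0.0144) and in osteoblasts against OMP (0.00468). Without a filter osteomodulin was called in OMP against CMP (edgeR adjusted p = 6.13e-04) and in osteoblasts against OMP (0.00255). Calls gained without a filter are not comparable with those of the main fit, since adjusted p of called members fell steeply there. Calls over all genes in OMP against CMP were 189, and 622 with the block, 585 without a filter, 401 with DESeq2, 58 with summed rows and 8 to 252 with a library left out. In osteoblasts against OMP they were 983, and 1754 with the block, 1553 without a filter and 573 to 876 with a library left out. In osteoblasts against CMP they were 1280, and 2217 with the block and 734 to 1339 with a library left out. The cause of these shifts was not tested. With summed rows, csgalnact1a, col14a1a, tgfb3, bmp2b, bmp6 and mmp9 lost their calls in OMP against CMP (edgeR adjusted p of 0.0510 to 0.0883) and adamts1 its call in osteoblasts against OMP (0.0566). In OMP against CMP bmp2b was also lost with 2 groups only (edgeR adjusted p = 0.157), and bmp2b and bmp6 with the newer method (0.0544 and 0.0940). Depth limits fibromodulin a, osteomodulin and biglycan b outside osteoblasts.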
